A study of Mus musculus with 15 samples.

Results

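The genes described here are 39 genes of DNA replication and of entry into S phase, the period of the cell cycle in which the genome is copied. They were taken by name from the table of gene counts by a rule that uses no measured value, though earlier results of these data were known when the list was drawn up, and all 39 have a row among its 23284 genes and were tested. They were measured in E14 cells, a mouse embryonic stem (ES) cell line (E14Tg2A), nucleofected with 5 nmol of an antisense oligonucleotide (ASO) and transfected 7 h later with 100 pmol of siRNA per well. Every group therefore carries both an ASO and an siRNA. The 5 groups of 3 libraries are RC siNcl (control RC ASO with siRNA to Ncl), LINE1 siControl (ASO to LINE1 with control siRNA), LINE1 siDux (ASO to LINE1 with siRNA to Dux), RC siDux (RC ASO with siRNA to Dux) and RC siControl (RC ASO with control siRNA). Cells were collected on day 2 without sorting, so that cells which took up little ASO or siRNA are included. Whether the 3 replicates of a group were separate cultures is not given in the labels, so a p-value here speaks of the spread between libraries, which may be technical.

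Replication starts in G1, when the origin recognition complex, Cdc6 and Cdt1 load the ring of Mcm proteins onto origins. At the start of S phase, cyclin E-dependent and other kinases, Cdc45, the GINS complex and Mcm10 turn that ring into a moving helicase, and polymerases copy both strands with the sliding clamp PCNA. Many of these genes are transcribed under E2F factors at the G1/S boundary, and the pocket proteins (the Rb family) and the DREAM complex repress them when the p53 target Cdkn1a blocks the cyclin-dependent kinases. Mouse ES cells have a short G1 and spend much of their cycle in S phase. Nucleolin, the product of Ncl, is a nucleolar protein of ribosome production, and disturbance of the nucleolus is known to stabilise p53.

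The RC siNcl libraries held between 9.55 M and 14.9 M gene counts, the 6 LINE1 ASO libraries between 17.4 M and 27.6 M, and the 6 RC siDux and RC siControl libraries between 10.1 M and 17.4 M. Levels below are normalised read counts (CPM, counts scaled to one library size) with TMM, a factor that corrects for differences in library composition. RC siControl replicate 2 stood apart, with a TMM factor of 0.874 against 0.965 to 1.07 elsewhere, and it held the highest value of all 15 libraries for 21 of the 39 genes and the lowest for 4. RC siNcl replicate 3 held the lowest value for 20. Ncl was at 644, 619 and 516 CPM in RC siNcl and at 4532, 6200.0 and 4648 CPM in RC siControl (log2 change -3.11 ± 0.13 SE, edgeR adjusted p = 8.81e-10). Dux was at most 2.00 CPM in any library, and its level in RC siDux and RC siControl did not differ detectably at this depth (-0.29 ± 0.83, adjusted p = 0.862). The ES cell factors Pou5f1 and Sox2 were at 705 to 1567 and 406 to 658 CPM over the 15 libraries. Of 12 fibroblast or feeder markers, 4 were too low to test, and Lum was at 0 in 9 libraries. RNA was measured in bulk, so a smaller share of cells in S phase and less RNA per cell cannot be told apart.

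RefSeq promoter windows (GRCm38.p6, from 250 bases before to 50 bases after the transcription start) were at hand for 31 of the 39 genes, and 5 are shown because the results below turn on these genes. Capitals mark E2F words, TTTGGCGC or TTTCGCGC on either strand. Words on opposite strands can overlap, and then form a single run of capitals. Cdt1 and Pola1 hold a word and were called lower in RC siNcl against 3 other groups, Mcm6 holds the most words, and Pcna had the largest fall and Rrm2 the only rise without holding one.
Cdt1, chr8:122567765-122568064, plus strand: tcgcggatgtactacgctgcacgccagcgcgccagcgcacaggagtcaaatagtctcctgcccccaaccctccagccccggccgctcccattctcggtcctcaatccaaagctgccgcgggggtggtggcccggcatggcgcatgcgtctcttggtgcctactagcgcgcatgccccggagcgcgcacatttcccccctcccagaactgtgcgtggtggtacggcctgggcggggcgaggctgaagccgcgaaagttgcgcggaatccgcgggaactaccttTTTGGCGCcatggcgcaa
Pola1, chrX:93632106-93632405, minus strand: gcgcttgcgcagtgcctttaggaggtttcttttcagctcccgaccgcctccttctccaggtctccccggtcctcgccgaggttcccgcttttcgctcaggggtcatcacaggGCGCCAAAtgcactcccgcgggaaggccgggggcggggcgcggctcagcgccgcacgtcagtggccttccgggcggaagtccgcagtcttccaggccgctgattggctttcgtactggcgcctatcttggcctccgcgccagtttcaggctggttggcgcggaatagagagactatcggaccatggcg
Mcm6, chr1:128359656-128359955, minus strand: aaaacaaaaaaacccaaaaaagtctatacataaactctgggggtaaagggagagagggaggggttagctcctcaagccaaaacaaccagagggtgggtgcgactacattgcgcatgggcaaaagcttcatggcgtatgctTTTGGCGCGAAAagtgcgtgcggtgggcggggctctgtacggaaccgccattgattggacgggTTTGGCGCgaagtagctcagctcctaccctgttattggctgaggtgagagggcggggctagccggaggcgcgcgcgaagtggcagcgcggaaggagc
Pcna, chr2:132253131-132253430, minus strand: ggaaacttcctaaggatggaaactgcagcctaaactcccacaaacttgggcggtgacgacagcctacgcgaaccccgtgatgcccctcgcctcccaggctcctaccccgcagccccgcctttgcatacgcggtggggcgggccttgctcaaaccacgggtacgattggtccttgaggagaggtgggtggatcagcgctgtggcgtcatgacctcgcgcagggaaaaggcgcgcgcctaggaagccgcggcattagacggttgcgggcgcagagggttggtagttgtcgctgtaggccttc
Rrm2, chr12:24708004-24708303, plus strand: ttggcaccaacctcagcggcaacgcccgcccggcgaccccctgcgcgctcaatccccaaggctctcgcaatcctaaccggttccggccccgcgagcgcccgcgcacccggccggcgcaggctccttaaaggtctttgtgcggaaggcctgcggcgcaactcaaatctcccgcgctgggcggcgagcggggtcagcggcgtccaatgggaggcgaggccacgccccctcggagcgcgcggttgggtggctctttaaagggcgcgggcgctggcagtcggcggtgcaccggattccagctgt

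An E2F word stood in the windows of 9 of the 31 genes (29.0%), namely Cdt1, Lig1, Mcm3, Mcm5, Mcm6, Mcm7, Orc1, Pola1 and Rfc3. Over the 10361 tested genes that have a window the share was 1.8%, and over all 32851 windows of the table it was 0.813%. By the outcome in RC siNcl against RC siControl, the word stood in 6 of 17 genes called lower (35.3%), in 3 of 13 not called (23.1%) and not in Rrm2. The word CCAAT, searched on both strands, stood in 21 of the 31 (67.7%) and 43.1% of the tested genes with a window (37.4% of all windows), in 10 of 17 called lower and 10 of 13 not called. TTTGAA, the cell cycle homology region bound by the DREAM complex, stood in 4 of the 31 (12.9%) and 14.0% of the tested genes with a window (17.9% of all windows), in 0 of 17 called lower and 4 of 13 not called. These counts describe letters in the windows and were not tested.

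RC siNcl against RC siControl addresses what follows the loss of Ncl under the control ASO. Replication genes fell across most of the machinery. Of the 39 genes, 23 were lower in RC siNcl (59.0%, against 15.6% of all 14696 genes tested), 1 was higher (2.56%, against 16.7%) and 15 were not called, by edgeR's quasi-likelihood test with Benjamini-Hochberg adjustment over all genes tested and a threshold of 0.05. The median log2 change was -0.36 for the 39 genes and -0.01 for all genes. Together they took 0.640% to 0.681% of gene counts in the RC siNcl libraries, against 0.729% to 0.805% in the other 12. All 3 RC siNcl libraries lay below all 3 RC siControl libraries for 25 genes (20.3% of all genes tested did so) and above them for 1 (22.1% of all genes), and for 13 the groups overlapped. Of the 24 called genes, 23 did not overlap.

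Scaling to the ERCC spike-ins in place of TMM left 0 of the 39 called in either direction, with a median of -0.33, and over all genes it left 68 lower and 563 higher calls, against 2298 and 2461 with TMM. The 23 lower calls (15.6% of all genes) became 15 without RC siNcl replicate 3 (9.93% of all genes). They became 15 when only these 6 libraries were fitted (9.18%) and 20 without RC siControl replicate 2 (13.2%). The share over all genes was thus also lower in these fits. Of the 24 calls, 16 held in each of the 15 fits that left out 1 library. The 8 lost in at least 1 were Mcm5 in 13, Mcm3, Rfc5 and Rpa3 in 3 each, Rfc2 and Rfc4 in 2 each, and Pold1 and Rpa2 in 1 each, that without RC siNcl replicate 3.

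**Figure D1:**
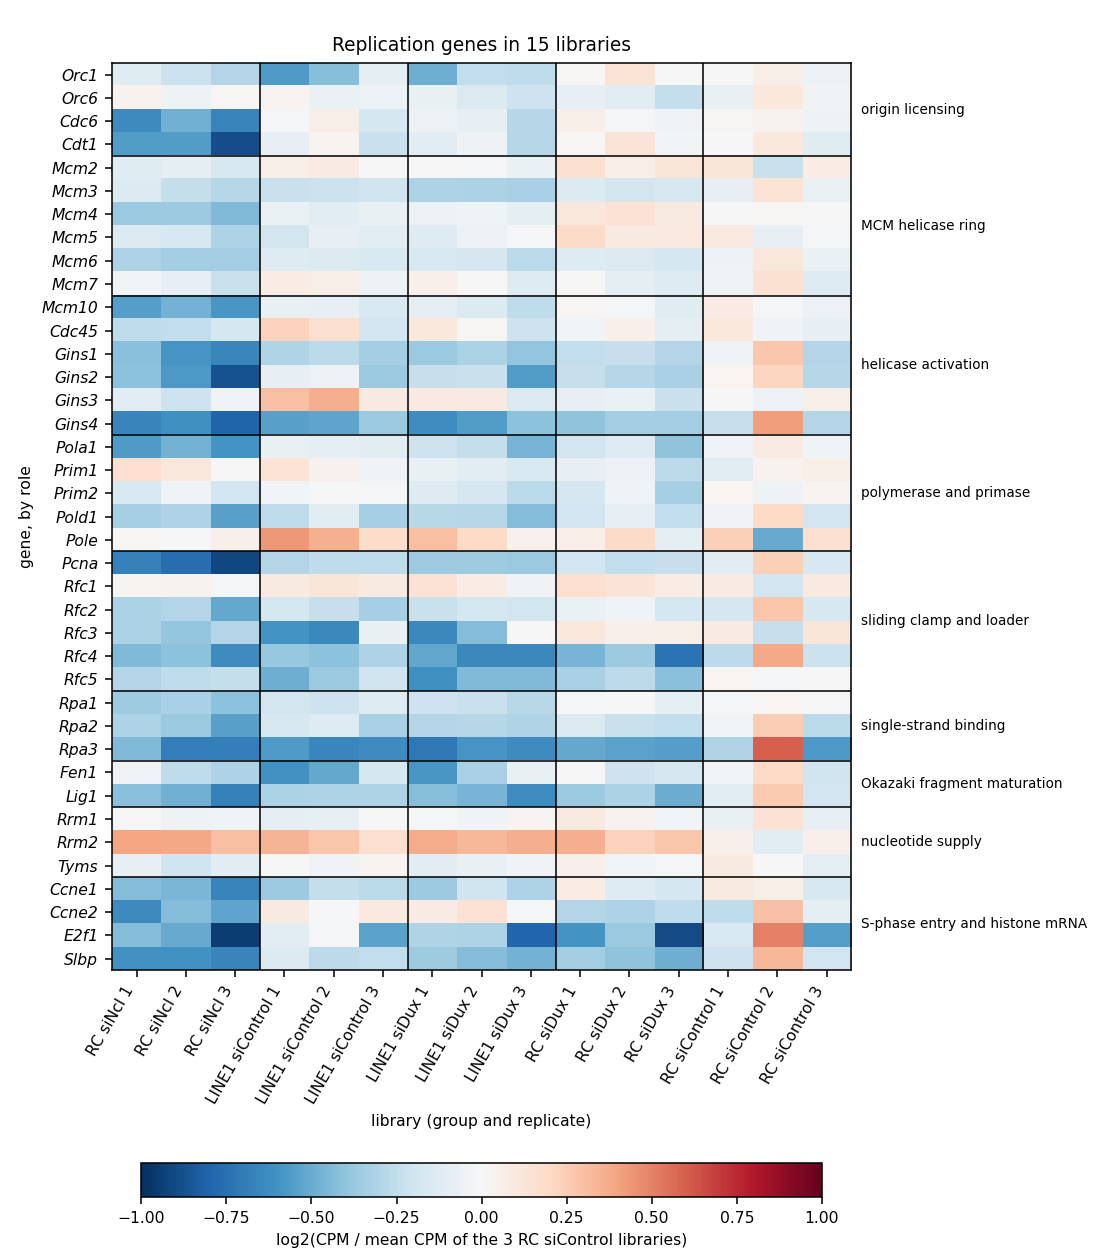
Level of each of the 39 replication genes (rows, by role) in each of the 15 libraries (columns, by group and replicate), as the log2 ratio of CPM to the mean of the 3 RC siControl libraries; blue is lower and red is higher. The 3 RC siNcl columns are blue for most rows, Rrm2 is red in the 12 libraries outside RC siControl, and RC siControl replicate 2 is red for many rows.

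Among the 4 genes of origin licensing, Cdc6 and Cdt1 fell and Orc1 and Orc6 were not called. Cdc6, the ATPase that joins the origin recognition complex to load the Mcm ring, was at 76.6, 85.1 and 74.8 CPM in RC siNcl, 97.4 to 124 CPM in the LINE1 siControl, LINE1 siDux and RC siDux libraries, and 119.7, 122 and 115 CPM in RC siControl. Its RC siNcl libraries lay below all 12 others, and the log2 change was -0.59 ± 0.09 (SE, adjusted p = 9.92e-05), a fall of 33.7%. Cdt1, the partner of Cdc6 that brings the ring to the origin, was at 127, 127 and 101 CPM in RC siNcl, 154 to 205 CPM in the LINE1 siControl, LINE1 siDux and RC siDux libraries, and 188, 201 and 172 CPM in RC siControl. Again the RC siNcl libraries were the 3 lowest of the 15 (log2 change -0.66 ± 0.10, adjusted p = 0.000173). Orc1, the largest origin recognition subunit, changed by -0.21 (95% interval -0.44 to 0.02) and Orc6, the smallest, by 0.00 (95% interval -0.17 to 0.17) on the log2 scale. The interval of Orc6 holds no change as large as the falls of Cdc6 and Cdt1.

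Of the 6 subunits of the Mcm2-7 ring, the replicative helicase, 4 fell, all by less than Cdc6 or Cdt1. Mcm4 was at 300.0, 301 and 287 CPM in RC siNcl, 362 to 429.8 CPM in the LINE1 siControl, LINE1 siDux and RC siDux libraries, and 387, 392 and 386 CPM in RC siControl, and its 3 RC siNcl libraries were the lowest of the 15. Its log2 change was -0.39 ± 0.06 (adjusted p = 0.000218), a fall of 23.8%. Mcm6 changed by -0.33 ± 0.07 (adjusted p = 0.00209), Mcm3 by -0.22 ± 0.07 (adjusted p = 0.0313) and Mcm5 by -0.20 ± 0.08. Mcm5 lay at the threshold (adjusted p = 0.04997) and was not called in 13 of the 15 fits that left out 1 library, among them those without RC siNcl replicate 3 (-0.15) or RC siControl replicate 1 (-0.16). Mcm2 was at 431, 437 and 419 CPM in RC siNcl, 448 to 524 CPM in the LINE1 siControl, LINE1 siDux and RC siDux libraries, and 509, 402 and 494 CPM in RC siControl. Its RC siControl libraries lay on both sides of the RC siNcl libraries, because replicate 2 was below them, and the change was -0.13 (95% interval -0.30 to 0.05). Without RC siControl replicate 2 the change of Mcm2 was -0.23 and it was called lower. Mcm7 changed by -0.11 (95% interval -0.30 to 0.08). The 6 subunits of one ring thus ranged from -0.39 to -0.11 in log2 change.

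Of the 6 genes whose products switch the loaded ring on, 4 fell. Mcm10, which is needed for the helicase to start unwinding, was at 153, 162 and 149 CPM in RC siNcl, 188 to 226 CPM in the LINE1 siControl, LINE1 siDux and RC siDux libraries, and 237, 221 and 215 CPM in RC siControl. The RC siNcl libraries were the 3 lowest (log2 change -0.53 ± 0.07, adjusted p = 5.68e-05). The GINS complex has 4 subunits, and Gins4 changed by -0.69 ± 0.14 (adjusted p = 0.00179), Gins2 by -0.60 ± 0.15 (adjusted p = 0.00482) and Gins1 by -0.55 ± 0.12 (adjusted p = 0.00228). Gins4 was at 84.9, 133 and 81.2 CPM in RC siControl, and without replicate 2 of that group its change was -0.43 and still called. Gins3 was at 20.01, 18.7 and 20.9 CPM in RC siNcl, 18.4 to 27.7 CPM in the LINE1 siControl, LINE1 siDux and RC siDux libraries, and 21.5, 20.6 and 22.3 CPM in RC siControl. Its RC siNcl and RC siControl libraries overlapped, and the change was -0.11 (95% interval -0.35 to 0.12). Cdc45, the partner of GINS and the Mcm ring in the active helicase, changed by -0.22 (95% interval -0.46 to 0.02).

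Of the 5 polymerase and primase genes, 2 fell, and both encode catalytic polymerase subunits. Pola1, the catalytic subunit of polymerase alpha, which starts each new strand together with primase, was at 104, 111 and 101 CPM in RC siNcl, 112 to 146 CPM in the LINE1 siControl, LINE1 siDux and RC siDux libraries, and 149.7, 162 and 149 CPM in RC siControl. Its RC siNcl libraries lay below all others, the nearest being LINE1 siDux replicate 3 (log2 change -0.54 ± 0.09, adjusted p = 0.000246). Pold1, the catalytic subunit of polymerase delta, which copies the lagging strand, changed by -0.39 ± 0.10 (adjusted p = 0.00862). Pole, the catalytic subunit of the leading-strand polymerase epsilon, was at 169.9, 168 and 174 CPM in RC siNcl, 158 to 227 CPM in the LINE1 siControl, LINE1 siDux and RC siDux libraries, and 198, 119 and 188 CPM in RC siControl. RC siControl replicate 2 was the lowest of the 15 libraries for Pole and replicates 1 and 3 were above all RC siNcl libraries, and the change was 0.02 (95% interval -0.28 to 0.33). The primase subunits Prim1 and Prim2 changed by 0.09 (95% interval -0.09 to 0.27) and by -0.13 (95% interval -0.31 to 0.06).

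Pcna, the sliding clamp that holds polymerases on DNA, had the largest fall of the 39 genes. It was at 313, 294 and 266 CPM in RC siNcl, 385 to 436 CPM in the LINE1 siControl, LINE1 siDux and RC siDux libraries, and 461, 589 and 446 CPM in RC siControl. The 3 RC siNcl libraries were the lowest and the 3 RC siControl libraries the highest, with a gap on either side of the other 9. The means were 291 ± 23.5 CPM in RC siNcl and 499 ± 78.6 CPM in RC siControl (SD, n = 3 each), a log2 change of -0.78 ± 0.10 (SE, adjusted p = 1.55e-05) or a fall of 41.7%. Without RC siControl replicate 2 the log2 change was -0.64. Of the 5 subunits of the clamp loader, which opens Pcna around DNA, 3 fell. They were Rfc4 (-0.49 ± 0.14, adjusted p = 0.0142), Rfc2 (-0.37 ± 0.11, adjusted p = 0.0164) and Rfc5 (-0.26 ± 0.08, adjusted p = 0.0241). Rfc4 and Rfc2 were no longer called without RC siControl replicate 2, with log2 changes of -0.26 and -0.21. Rfc3 changed by -0.33 (95% interval -0.68 to 0.02) and Rfc1, the largest subunit, by 0.02 (95% interval -0.16 to 0.19).

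**Figure D2:**
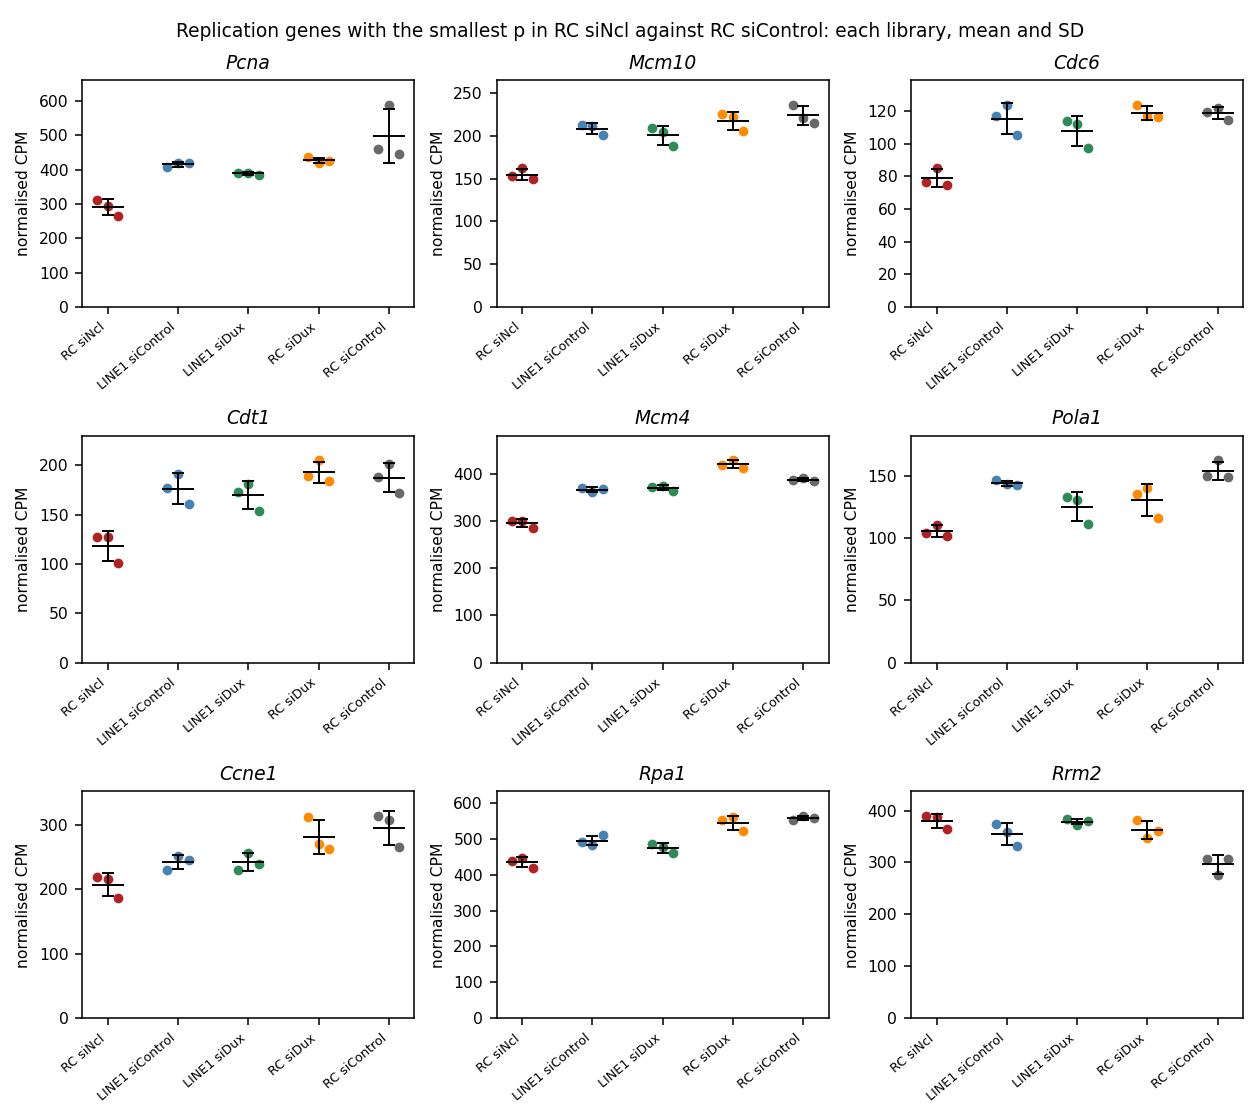
CPM (vertical axes, from 0) of the 8 replication genes with the smallest p among those lower in RC siNcl against RC siControl and of Rrm2, the only one higher, in each library; colours mark the 5 groups, horizontal bars the means and error bars the SD of 3 libraries. For each of the 8 all 3 RC siNcl libraries lie below the other 12, and for Rrm2 the 3 RC siControl libraries lie below the other 12.

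All 3 subunits of replication protein A, which coats single-stranded DNA at the fork, were called lower. Rpa1, the large subunit that binds DNA, was at 437, 447 and 419 CPM in RC siNcl, 459.6 to 560.1 CPM in the LINE1 siControl, LINE1 siDux and RC siDux libraries, and 552, 565 and 559 CPM in RC siControl. The RC siNcl libraries were the 3 lowest (log2 change -0.36 ± 0.07, adjusted p = 0.000662). Rpa2 changed by -0.40 ± 0.11 (adjusted p = 0.00996), by -0.26 without RC siControl replicate 2, and was not called without RC siNcl replicate 3. Rpa3, the small subunit, was at 33.00, 27.7 and 27.9 CPM in RC siNcl, 27.3 to 31.5 CPM in the LINE1 siControl, LINE1 siDux and RC siDux libraries, and 36.5, 68.1 and 30.1 CPM in RC siControl. RC siControl replicate 2 was far above the other 14 libraries and replicate 3 lay inside the range of RC siNcl. The log2 change of Rpa3 was -0.60 ± 0.20 (adjusted p = 0.0336), and without replicate 2 it was -0.17 and not called. Of the genes that finish lagging-strand (Okazaki) fragments, Lig1, the ligase that seals them, fell by 30.2% (log2 change -0.52 ± 0.11, adjusted p = 0.00176). Fen1, the nuclease that trims their flaps, changed by -0.19 (95% interval -0.49 to 0.10).

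Of the 3 genes of nucleotide supply, 1 rose and 0 fell. Rrm2, the S-phase subunit of ribonucleotide reductase, was at 389.9, 387 and 365 CPM in RC siNcl, 332 to 383 CPM in the LINE1 siControl, LINE1 siDux and RC siDux libraries, and 307, 275 and 306 CPM in RC siControl. The RC siControl libraries were the 3 lowest of the 15, and the other 4 groups overlapped one another. Rrm2 was the only one of the 39 genes that rose (log2 change 0.36 ± 0.08, adjusted p = 0.00173), a rise of 28.5%. Rrm1, the other subunit of the enzyme, changed by -0.03 (95% interval -0.19 to 0.13) and Tyms, thymidylate synthase, by -0.13 (95% interval -0.29 to 0.03). Rrm2b, a p53-induced ribonucleotide reductase subunit that is not among the 39, was at 11.8, 14.1 and 13.2 CPM in RC siNcl and 7.90, 8.42 and 11.9 CPM in RC siControl and was not called (0.46 ± 0.19, adjusted p = 0.0773).

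Of the 4 genes of S-phase entry and histone mRNA, 3 fell. Ccne1, cyclin E, which with Cdk2 drives cells into S phase, was at 219, 215 and 186 CPM in RC siNcl, 229 to 311 CPM in the LINE1 siControl, LINE1 siDux and RC siDux libraries, and 314, 307 and 265 CPM in RC siControl. Its RC siNcl libraries were below all 12 others (log2 change -0.51 ± 0.09, adjusted p = 0.000639). Ccne2, the second cyclin E gene, was at 18.5, 21.4 and 20.04 CPM in RC siNcl, 23.3 to 31.97 CPM in the LINE1 siControl, LINE1 siDux and RC siDux libraries, and 24.2, 35.3 and 27.1 CPM in RC siControl. The RC siNcl libraries were again the 3 lowest (log2 change -0.53 ± 0.12, adjusted p = 0.0039).

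Slbp, which binds the stem-loop of replication-dependent histone mRNAs, was at 114, 113 and 109 CPM in RC siNcl, 123 to 157 CPM in the LINE1 siControl, LINE1 siDux and RC siDux libraries, and 149, 217 and 151 CPM in RC siControl. The 3 RC siNcl values differed by little from one another and lay below all others, while RC siControl spread widely through replicate 2 (log2 change -0.62 ± 0.12, adjusted p = 0.000674). E2f1, an activator of G1/S genes, was at 41.9, 39.8 and 29.3 CPM in RC siNcl, 30.5 to 56.1 CPM in the LINE1 siControl, LINE1 siDux and RC siDux libraries, and 50.9, 80.3 and 38.6 CPM in RC siControl. RC siControl replicate 3 lay inside the RC siNcl range and replicate 2 was the highest of all libraries. Its log2 change of -0.61 ± 0.23 was as large as those of Slbp and Gins2 but was not called (adjusted p = 0.0556), and it was -0.27 without RC siControl replicate 2. The E2f1 call depended on the settings. E2f1 was called lower with no filter on low counts (adjusted p = 0.0398), by DESeq2 (adjusted p = 0.0309), without LINE1 siControl replicate 3 (adjusted p = 0.0488), without LINE1 siDux replicate 3 (adjusted p = 0.0481) and without RC siControl replicate 3 (adjusted p = 0.00934). Its change without RC siControl replicate 3 was -0.83.

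Every RC siNcl result above shares its RC siControl libraries with the other RC siControl comparisons, so RC siNcl was also set against RC siDux and LINE1 siControl. These comparisons share the RC siNcl libraries with the first. Against RC siDux, 9 of the 39 genes were lower (23.1%, against 7.1% of all genes) and 0 higher (against 9.53%), with a median of -0.20 (0.00 for all genes). Deviations from the group means correlated between same-numbered libraries of these 2 groups (0.149, 0.265 and 0.356), though the labels do not say what a number shares. With the replicate number as a block 14 were lower (9.93% of all genes). Against LINE1 siControl, 10 were lower (25.6%, against 9.45% of all genes) and 0 higher (against 10.4%), with a median of -0.19 (0.01 for all genes). At an unadjusted p under 0.05, in either direction, 19 of the 39 passed against RC siDux (4446 of all 14696 genes). Against LINE1 siControl 16 of the 39 passed (4890 of all 14696 genes). DESeq2 also called 0 higher in both (10.6% and 11.8% of all genes). All 3 RC siNcl libraries lay below all 3 RC siDux libraries for 24 of the 39 (19.9% of all genes) and above them for 2 (20.9% of all genes), and below all 3 LINE1 siControl libraries for 21 (19.2% of all genes) and above them for 0 (20.3% of all genes). Without RC siControl replicate 2, a library of neither comparison, 15 were lower against RC siDux (10.5% of all genes) and 17 against LINE1 siControl (13.1% of all genes). A fit of RC siNcl and RC siDux alone called 18 lower (12.6% of all genes). The count over all genes was thus also higher in these fits, and the cause was not tested.

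The genes called lower in all 3 comparisons were Pcna, Cdc6, Cdt1, Mcm4, Mcm10 and Pola1. For Cdt1 the log2 changes were -0.66 ± 0.10 against RC siControl, -0.70 ± 0.10 against RC siDux (adjusted p = 0.000247) and -0.58 ± 0.10 against LINE1 siControl (adjusted p = 0.00111). For Cdc6 they were -0.59 ± 0.09, -0.60 ± 0.09 and -0.55 ± 0.09, taken in that order, and these values lie within 1 SE of one another. Pcna changed by -0.78 ± 0.10 against RC siControl, -0.55 ± 0.10 against RC siDux and -0.51 ± 0.10 against LINE1 siControl. Mcm4 changed most against RC siDux (-0.51 ± 0.06, adjusted p = 4.64e-05), the group in which it was highest. Mcm10 changed by -0.49 ± 0.07 against RC siDux and -0.43 ± 0.07 against LINE1 siControl, and Pola1 by -0.31 ± 0.09 (adjusted p = 0.0261) and -0.45 ± 0.09. Pola1 lost its call against RC siDux in 4 of the 15 fits that left out 1 library, those without RC siNcl replicate 1 or 3 or RC siDux replicate 1 or 2 (adjusted p up to 0.12). The other 5 genes kept their calls against RC siDux and LINE1 siControl in each of these fits.

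The remaining calls differed between the 2 groups. Against RC siDux they were Ccne1 (-0.44 ± 0.09, adjusted p = 0.00418), Rpa1 (-0.33 ± 0.07, adjusted p = 0.00309) and Mcm5 (-0.33 ± 0.08, adjusted p = 0.00645). Mcm5 was at 420.0, 414 and 376 CPM in RC siNcl and 529, 495 and 497 CPM in RC siDux, without overlap. Against LINE1 siControl they were Ccne2 (-0.59 ± 0.12, adjusted p = 0.00264), Slbp (-0.41 ± 0.11, adjusted p = 0.0196), Gins2 (-0.45 ± 0.14, adjusted p = 0.0383) and Gins3 (-0.37 ± 0.11, adjusted p = 0.0253). Of these, Slbp lost its call in 3 of the 15 fits that left out 1 library (adjusted p up to 0.0672), Gins2 in 4 (up to 0.169) and Gins3 in 4 (up to 0.117), each time without an RC siNcl or a LINE1 siControl library. Ccne2 lost its call in 0. Gins3, not called against RC siControl, was at 20.01, 18.7 and 20.9 CPM in RC siNcl and 26.4, 27.7 and 22.8 CPM in LINE1 siControl, without overlap. With ERCC scaling 0 of the 39 were called lower against RC siDux (0.347% of all genes) or LINE1 siControl (0.721% of all genes). Rrm2 changed by 0.07 ± 0.08 against RC siDux and 0.10 ± 0.08 against LINE1 siControl and was not called in either.

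**Figure D3:**
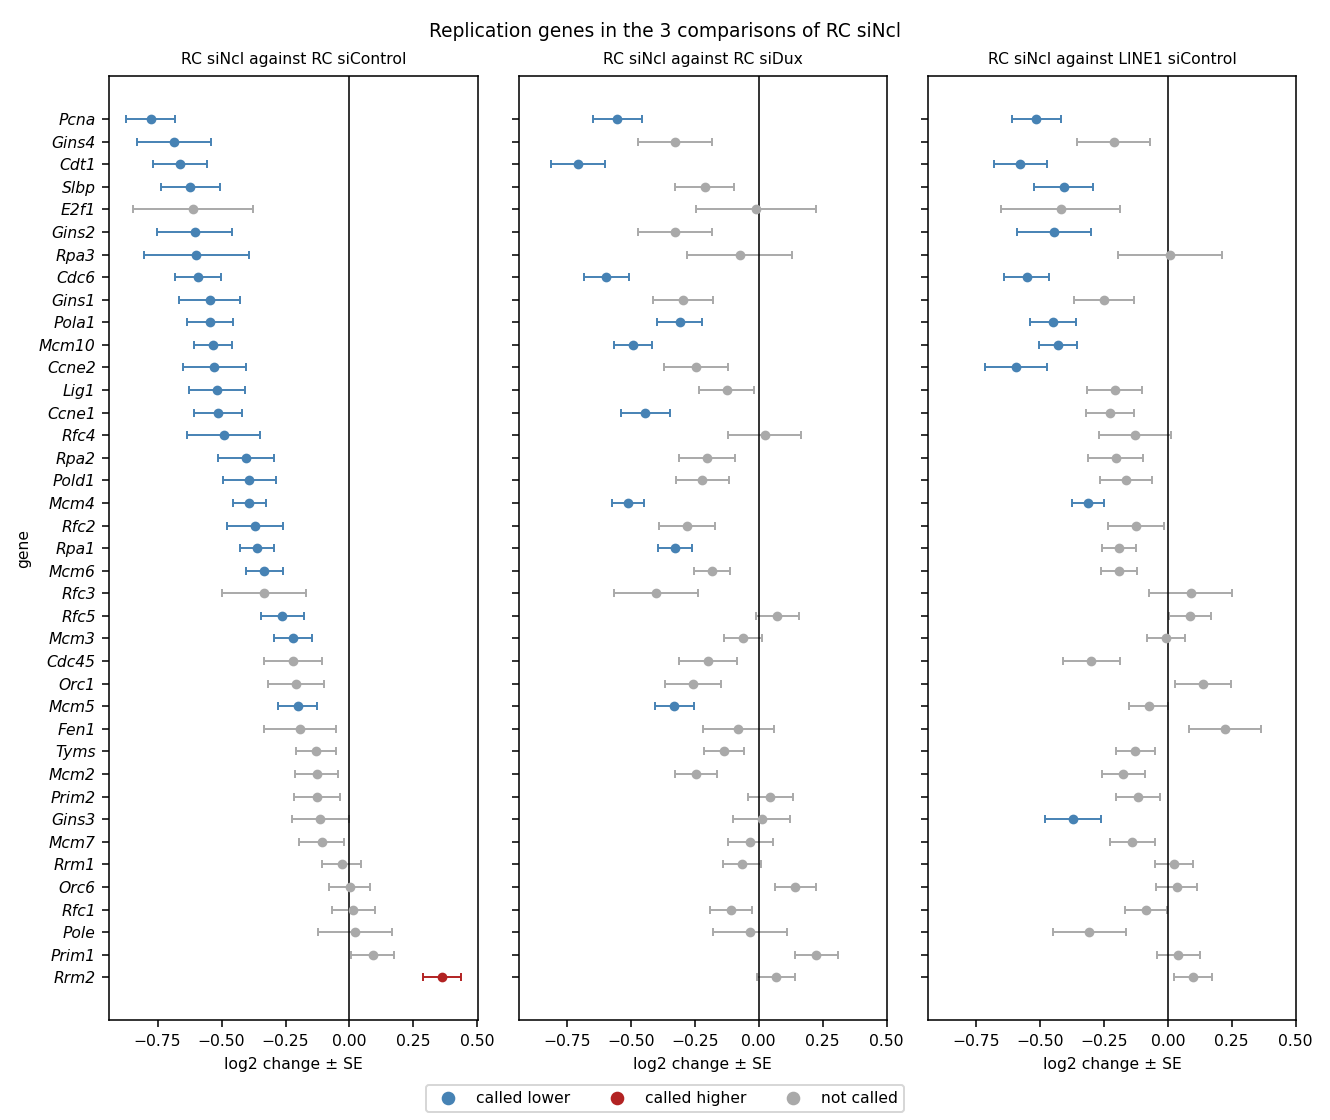
Log2 change (horizontal axis, points with SE) of each of the 39 replication genes in RC siNcl against RC siControl, against RC siDux and against LINE1 siControl, sorted by the first; blue points were called lower, red higher and grey not. Points called lower number 23, 9 and 10 from left to right, and the 3 panels share the same RC siNcl libraries.

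The LINE1 ASO comparisons ask whether an ASO directed at LINE1 alters these genes, and their directions rest on the labels. In LINE1 siControl against RC siControl, 6 of the 39 were lower (15.4%, against 9.69% of all genes) and 1 was higher (2.56%, against 9.35%), with a median of -0.14 (0.02 for all genes). The strongest call was Rfc5, a clamp loader subunit, at 162, 176 and 198 CPM in LINE1 siControl and 231, 226 and 226 CPM in RC siControl. The groups did not overlap (-0.35 ± 0.08, adjusted p = 0.0124). Gins4 was at 68.5, 69.05 and 77.2 CPM in LINE1 siControl and 84.9, 133 and 81.2 CPM in RC siControl (-0.48 ± 0.14, adjusted p = 0.0305), and Orc1 at 80.3, 88.6 and 112 CPM and 119, 124 and 114 CPM in the same order (-0.35 ± 0.11, adjusted p = 0.038). For Gins4 and Orc1 every LINE1 siControl library was the lower, though LINE1 siControl replicate 3 came within a few CPM of the nearest RC siControl library. Without RC siControl replicate 2 the change of Gins4 was -0.21.

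The other genes lower with the LINE1 ASO were Fen1 (-0.42 ± 0.14), Rpa3 (-0.61 ± 0.20) and Ccne1 (-0.29 ± 0.09), and Rrm2 was the one higher (0.26 ± 0.08, adjusted p = 0.0263). Fen1 was at 80.1, 85.7 and 108 CPM in LINE1 siControl and 120.1, 139.9 and 107 CPM in RC siControl, where replicate 3 of each group overlapped. Without RC siControl replicate 2 the change of Rpa3 was -0.18. Each of the 7 calls was lost in at least 1 of the 15 fits that left out 1 library, Rpa3 in 13, Ccne1 in 12, Fen1 in 11, Orc1 in 7, Gins4 and Rrm2 in 3 each and Rfc5 in 2. There was 1 lower call without RC siControl replicate 2 (4.67% of all genes) and 13 without RC siControl replicate 3 (12.3% of all genes). There were 0 without LINE1 siControl replicate 1 or 2 (0.762% and 1.61% of all genes). Pcna changed by -0.26 ± 0.09 and was not called (adjusted p = 0.0606). Under siDux, LINE1 siDux against RC siDux, 0 of the 39 were called in either direction by edgeR (against 0.749% of all genes lower and 2.31% higher). An unadjusted p under 0.05 was reached by 7 (against 2941 of all 14696 genes), and DESeq2 called 3 lower (against 2.29% of all genes). All 3 LINE1 siDux libraries lay below all 3 RC siDux libraries for 18 of the 39 (15.9% of all genes). They lay above them for 1 (15.4% of all genes). The median was -0.10 (0.00 for all genes).

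The siRNA to Dux under the RC ASO, RC siDux against RC siControl, gave 4 lower calls (10.3%, against 4.5% of all genes) and 1 higher (2.56%, against 6.09%), with a median of -0.13 (-0.01 for all genes). Rfc5 was at 181, 189.8 and 170.2 CPM in RC siDux, below the 3 RC siControl libraries (-0.33 ± 0.08, adjusted p = 0.0185). Rfc4 was at 76.7, 82.4 and 63.3 CPM in RC siDux and 88.5, 138 and 91.5 CPM in RC siControl (-0.51 ± 0.14, adjusted p = 0.0294), and Lig1 at 263, 273 and 241 CPM and 315, 407 and 297 CPM in the same order (-0.39 ± 0.11, adjusted p = 0.0294). Neither gene's groups overlapped, and RC siControl replicate 2 was the highest for both. Slbp changed by -0.41 ± 0.11 (adjusted p = 0.0311) and Rrm2 rose by 0.29 ± 0.08 (adjusted p = 0.0216). Without RC siControl replicate 2 there was 1 lower call (3.13% of all genes), with Rfc4 at -0.28, Lig1 at -0.24 and Slbp at -0.21. Without RC siDux replicate 1 or 3 there were 0 lower calls (1.47% and 1.03% of all genes) and Rrm2 was not called. Cdc6, Cdt1 and Mcm4, lower in RC siNcl, changed by 0.00 ± 0.09, 0.04 ± 0.10 and 0.12 ± 0.06 in RC siDux and were not called.

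In LINE1 siDux against LINE1 siControl, 0 of the 39 were called by edgeR (against 0.306% of all genes lower and 0.544% higher). DESeq2 called 0 as well (against 0.694% lower and 1.52% higher). An unadjusted p under 0.05 was reached by 2 of the 39, against 1746 of all 14696 genes. The median was -0.07 (0.00 for all genes). The interaction of LINE1 ASO and siDux tests whether siDux acts differently under the 2 ASOs. It called 0 of the 39 and 0 of all genes (0% in each direction). An unadjusted p under 0.05 was reached there by 0 of the 39, against 491 of all 14696 genes. DESeq2 also called 0 of the 39 (against 0.068% of all genes lower and 0.0068% higher). Over the 8 comparisons, edgeR's fit of all 15 libraries called 27 of the 39 at least once. The 12 it did not call were Cdc45, Mcm2, Mcm7, Orc6, Rfc1, Rfc3, Pole, Prim1, Prim2, Rrm1, Tyms and E2f1.

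**Figure D4:**
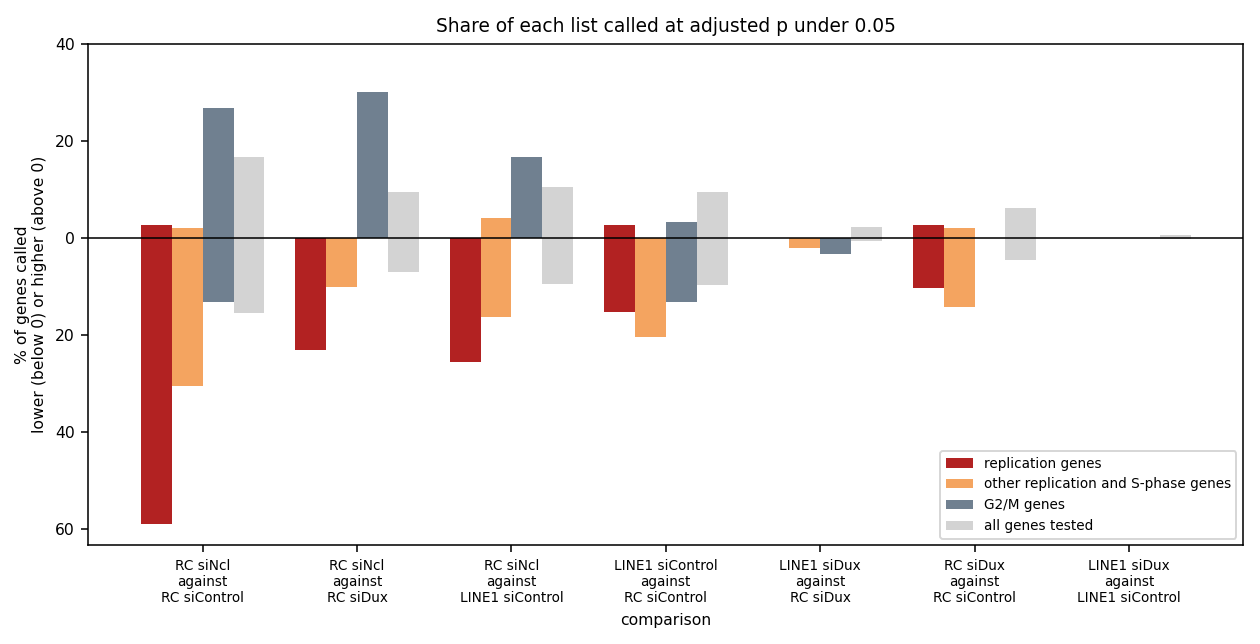
Percent of genes called higher (above 0) or lower (below 0) in 7 comparisons, for the 39 replication genes, 49 other replication and S-phase genes, 30 G2/M genes and all 14696 genes tested. The 39 genes reach 59.0% lower in RC siNcl against RC siControl, where 15.6% of all genes were lower, and 0% in both comparisons that involve LINE1 siDux.

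As a measure of p53 activity, 29 known target genes were counted. In RC siNcl against RC siControl, 22 of the 29 rose (75.9%, against 16.7% of all genes) and 0 fell, with a median log2 change of 1.03. Cdkn1a, which encodes the kinase inhibitor p21, was at 106, 104 and 128 CPM in RC siNcl, 49.3 to 114 CPM in the LINE1 siControl, LINE1 siDux and RC siDux libraries, and 38.96, 35.9 and 41.3 CPM in RC siControl. The RC siNcl and RC siControl libraries stood well apart (log2 change 1.54 ± 0.20, adjusted p = 3.09e-05). Mdm2, the ubiquitin ligase that p53 induces against itself, was at 841, 866 and 1038 CPM in RC siNcl, 328 to 693 CPM in the LINE1 siControl, LINE1 siDux and RC siDux libraries, and 166, 162 and 141 CPM in RC siControl, and every RC siNcl library was above all 12 others (2.55 ± 0.15, adjusted p = 5.16e-09). Ccng1, cyclin G1, rose by 1.37 ± 0.13. Trp53, the gene of p53 itself, was at 429, 406 and 421 CPM in RC siNcl and 455, 390.2 and 417 CPM in RC siControl, with overlap (-0.01 ± 0.09, adjusted p = 0.965).

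The p53 list was also counted in the other comparisons. Of its 29 genes, 12 rose in LINE1 siControl against RC siControl (41.4%, against 9.35% of all genes, median 0.40). In RC siDux against RC siControl 17 rose (58.6%, against 6.09% of all genes, median 0.48), and 0 fell in either comparison. The medians of the 39 replication genes were -0.14 and -0.13 in the same order. Both comparisons, and RC siNcl against RC siControl, rest on the same RC siControl libraries. In RC siNcl against RC siDux, which does not use them, 17 rose (58.6%, against 9.53% of all genes, median 0.64) and 9 of the 39 replication genes were lower. In RC siNcl against LINE1 siControl, 20 rose (69%, against 10.4% of all genes, median 0.81) and 10 replication genes were lower. In LINE1 siDux against RC siDux, 5 of the 29 rose (17.2%, against 2.31% of all genes). In LINE1 siDux against LINE1 siControl 4 rose (13.8%, against 0.544% of all genes). There 0 replication genes were called in either comparison, with medians of -0.10 and -0.07 for the 39.

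Per library, the mean log2 CPM of the 39 genes and of the 29 p53 targets was set against the mean of the RC siControl libraries. In RC siNcl the replication genes were at -0.27, -0.30 and -0.39 and the p53 targets at 1.15, 1.14 and 1.26. In LINE1 siControl the replication genes were at -0.12, -0.12 and -0.15 with p53 targets at 0.49, 0.45 and 0.44. In LINE1 siDux the replication genes were at -0.19, -0.17 and -0.24 with p53 targets at 0.72, 0.71 and 0.95. RC siNcl libraries were thus lowest in the first measure and highest in the second, without overlap with any other group. In RC siDux the replication genes were at -0.09, -0.09 and -0.19 with p53 targets at 0.50, 0.39 and 0.77. In RC siControl the replication genes were at -0.02, 0.11 and -0.09 with p53 targets at -0.04, 0.10 and -0.06. Replicate 3 had the lowest replication mean in all 5 groups, together with the highest p53 mean in RC siNcl, LINE1 siDux and RC siDux and the lowest in LINE1 siControl and RC siControl. All points share a baseline and a normalisation and fall into groups, so no correlation is given, and a part of p53 in the replication genes was not tested.

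**Figure D5:**
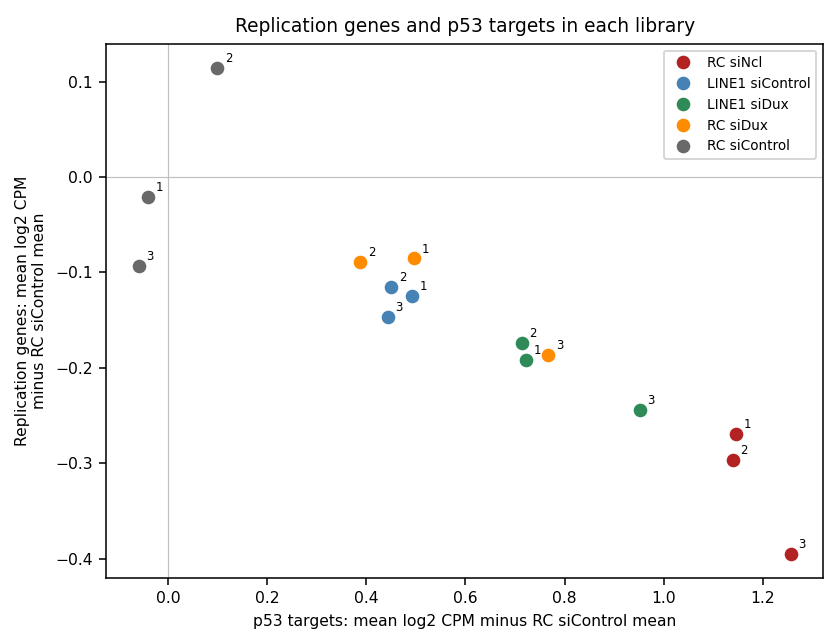
Mean log2 CPM of the 39 replication genes (vertical axis) against that of the 29 p53 targets (horizontal axis), both relative to the mean of the 3 RC siControl libraries; each point is 1 library, numbered by replicate and coloured by group. RC siNcl lies at the lower right, from -0.27 to -0.39 and 1.14 to 1.26, RC siControl at the upper left, and the centres of the other 3 groups lie between them on both axes.

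Other genes of the same pathways were counted in RC siNcl against RC siControl, where 16.7% of all genes tested rose and 15.6% fell. Of 49 further replication and S-phase genes, 15 fell (30.6%) and 1 rose (2.04%), with a median of -0.19. The 4 with the smallest p all fell. Pola2, the regulatory subunit of polymerase alpha, was at 58.5, 60.8 and 57.2 CPM in RC siNcl and 92.7, 99.2 and 98.7 CPM in RC siControl, without overlap (-0.72 ± 0.08, adjusted p = 4.59e-06). Tk1, thymidine kinase, was at 40.1, 43.9 and 34.1 CPM in RC siNcl and 66.95, 75.4 and 61.5 CPM in RC siControl, without overlap (-0.79 ± 0.11, adjusted p = 5.08e-05). The polymerase delta subunits Pold2 and Pold3 changed by -0.64 ± 0.11 and -0.34 ± 0.08. The one that rose was Dna2, a helicase and nuclease of lagging-strand processing (0.27 ± 0.09), named after its value was seen.

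Of 28 E2F, pocket protein and DREAM genes, 5 rose (17.9%, near the background) and 8 fell (28.6%), with a median of -0.11. Rb1, the retinoblastoma protein that holds E2F factors inactive, was at 95.8, 96.96 and 114 CPM in RC siNcl, 33.7 to 63.1 CPM in the LINE1 siControl, LINE1 siDux and RC siDux libraries, and 18.9, 21.1 and 17.3 CPM in RC siControl. Every RC siNcl library was above all 12 others and every RC siControl library below them (2.43 ± 0.12, adjusted p = 3.04e-09). Rbl2, a pocket protein of the DREAM complex, was at 21.6, 20.3 and 18.5 CPM in RC siNcl, 9.26 to 16.7 CPM in the LINE1 siControl, LINE1 siDux and RC siDux libraries, and 7.59, 8.42 and 7.25 CPM in RC siControl, again without overlap with any other group (1.38 ± 0.14, adjusted p = 2.33e-06). E2f7, a repressor of the E2F family, rose by 0.64 ± 0.10 (adjusted p = 0.000156). Ccnd3, cyclin D3, which starts the inactivation of Rb, changed by -0.55 ± 0.09 (adjusted p = 0.000167).

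Of 30 genes of G2 and mitosis, 8 rose (26.7%) and 4 fell (13.3%), with a median of 0.02. Cenpe, a kinetochore motor, was at 284, 275 and 285 CPM in RC siNcl and 204, 204 and 208 CPM in RC siControl (0.45 ± 0.08, adjusted p = 0.000266), and Hmmr, a spindle protein, at 432, 428 and 454 and 327, 304 and 327 CPM in the same order (0.45 ± 0.08, adjusted p = 0.000462). Neither overlapped between the groups. Ccnf, cyclin F, changed by 0.43 ± 0.08 and Cdk1, the mitotic kinase, by -0.33 ± 0.09. Of 15 checkpoint and replication stress genes, 2 rose and 2 fell (13.3% each, median -0.08), shares below those of all genes. They were Cdc25b, a phosphatase that activates Cdk1 (0.56 ± 0.12), Fanci, of the Fanconi DNA repair pathway (0.38 ± 0.11), Atr, the kinase that senses stalled forks (-0.41 ± 0.11), and Chek1, the kinase that Atr activates (-0.31 ± 0.11).

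Markers of cell identity moved in the same comparison. Of 12 ES cell markers, 4 were lower in RC siNcl (Zfp42, Pou5f1, Fgf4 and Dppa5a, 33.3%, against 15.6% of all genes) and 0 higher (against 16.7%). Their summed levels were 5606, 5754 and 4619 CPM in RC siNcl and 6401, 9661 and 5681 CPM in RC siControl, with overlap. In RC siControl, Dppa5a had 34589 counts in replicate 2, against 11962 and 15249 in replicates 1 and 3. Of 12 primitive endoderm markers, 5 were higher (Col4a1, Pdgfra, Dab2, Cubn and Gata6, 41.7%, against 16.7% of all genes) and 0 lower (against 15.6%). Their sums were 497 to 499 CPM in RC siNcl and 359 to 413 CPM in RC siControl. Lamb1 and Lama1, neither called, had the highest levels of the 12, up to 269 and 150 CPM over the 15 libraries. Among the 5 called, Gata6 and Pdgfra were at 6.71, 1.92 and 1.67 CPM and 5.11, 2.96 and 4.74 CPM in RC siNcl. In RC siControl they were at 1.64, 0.670 and 1.19 CPM and 1.85, 1.24 and 1.72 CPM. The 7 not called were Gata4, Sox17, Sox7, Foxa2, Lama1, Lamb1 and Amn. Of the 12 log2 changes 10 were positive and 2 negative. Foxa2 had 3, 0 and 4 counts in RC siNcl and 4, 7 and 7 in RC siControl. Of 8 tested fibroblast or feeder markers 0 were called by edgeR, with sums of 69.0 ± 2.42 CPM in RC siNcl and 66.1 ± 12.8 CPM in RC siControl (SD, n = 3 each). The part of cell identity in the replication genes was not tested.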

How the data were processed

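Libraries were made from total RNA of E14 ES cells with a directional mRNA kit, per the labels' protocols. Per the submitters' processing notes, the authors used Trim Galore 0.4.0, TopHat2 2.0.9, R 3.3.0 and DESeq2 1.12.3 with the genome build mm9. The values used are raw read counts per gene as deposited by the authors (23284 genes and 92 ERCC spike-ins, 15 libraries). The strand setting of the counting and its treatment of reads with several matches are not given in the sources used here. The reference at hand is GRCm38, so coordinates are given for RefSeq promoter windows only.

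ERCC rows (0.273% to 0.652% of gene counts) entered neither the library sizes nor the tests. Genes with too few counts were removed by filterByExpr, which left 14696. edgeR 4.0.16 (R 4.3.3) fitted a quasi-likelihood model with 1 term per group to all 15 libraries (TMM, 10 residual degrees of freedom), with Benjamini-Hochberg adjustment per comparison and a threshold of 0.05. Errors of log2 changes are SE; those of CPM are SD over 3 libraries. Mean log2 CPM used a prior count of 2. The statistics were tested on simulated data. No 2 libraries of the same group agreed within sampling noise.

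Deviations from group means correlated between same-numbered libraries by more than 0.1 in all 3 pairs for RC siNcl and RC siDux (0.149, 0.265 and 0.356), RC siDux and RC siControl (0.186, 0.199 and 0.280), and LINE1 siDux and LINE1 siControl (0.469, 0.280 and 0.556). The labels do not say what a number shares.

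The 39 genes and all lists were chosen with earlier results of these data known. Any of the 39 could be named. Values per library are given for up to 8 genes per direction with the smallest p in RC siNcl against RC siControl, up to 3 in other comparisons, and for Pcna, Cdc6, Cdt1, Ccne1, Ccne2, E2f1, Slbp, Rrm2 and Mcm2. Pole, Gins3, Rpa3, Mcm5 and Fen1 were added after their values were seen, since 1 library or 1 comparison decides what they show. From other lists up to 4 genes with the smallest p are named. Symbols without a row (3 list genes) were left out. Alternatives were RLE and ERCC scaling, no filter, 5 CPM in 3 libraries, the replicate as a block, the compared groups alone, each library left out, and DESeq2 1.42.0.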

Additional observations from a re-analysis of the deposited data

How the results depend on the processing

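The 6 genes lower against all 3 groups and Rrm2 kept direction and call in RC siNcl against RC siControl under all alternatives except ERCC scaling. ERCC scaling gave 0 higher calls (at most 3.83% of all genes) and 0 lower calls (at most 0.721%) among the 39 in every comparison. Its medians were -0.48 for RC siNcl against RC siDux, -0.34 against LINE1 siControl, 0.068 for LINE1 siControl against RC siControl, -0.34 for LINE1 siDux against RC siDux, 0.21 for RC siDux against RC siControl, -0.18 for LINE1 siDux against LINE1 siControl and -0.41 for the interaction. It moved the median of all genes in these comparisons to -0.27, -0.16, 0.22, -0.22, 0.31, -0.12 and -0.43, so the 39 genes lay below all genes in all of them but the interaction. The cause was not tested.

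Shares of all genes in the same fit are given in brackets. With the replicate block, lower calls were 14 for RC siNcl against RC siDux (9.93%), 13 for LINE1 siControl against RC siControl (13.3%) and 2 for LINE1 siDux against RC siDux (3.15%). The other counts stayed within 1.5 times. E2f1 was called lower in RC siNcl against RC siControl with the block (-0.58, adjusted p = 0.00157). Fits of the compared groups alone have fewer samples and gave 15 lower for RC siNcl against RC siControl (9.18%) and 18 against RC siDux (12.6%). They gave 0 higher and 0 lower for LINE1 siControl (2.56% and 0.225%) and for RC siDux (1.49% and 0.304%) against RC siControl. For LINE1 siDux against RC siDux they gave 1 higher (3.36%) and 1 lower (2.38%). DESeq2 gave 10 lower for LINE1 siControl against RC siControl (12%) and 3 for LINE1 siDux against RC siDux (2.29%). The filter of 5 CPM gave 3 lower for LINE1 siControl against RC siControl (10.3%).

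Leaving out 1 library moved the calls, and the range of the share over all genes is in brackets. For RC siNcl, lower calls ran from 15 to 24 against RC siControl (9.93% to 17.4%). They ran from 8 to 15 against RC siDux (3.95% to 10.5%) and from 7 to 17 against LINE1 siControl (5.51% to 13.1%). For LINE1 siControl against RC siControl, 0 to 13 were lower (0.762% to 12.3%) and 0 to 2 higher (3.19% to 11.9%). For LINE1 siDux against RC siDux, 0 to 3 were lower (0.0734% to 3.77%) and 0 to 1 higher (0.627% to 5.03%). For RC siDux against RC siControl, 0 to 9 were lower (1.03% to 7.35%) and 0 to 1 higher (2.72% to 6.38%). The interaction median ran from -0.01 to 0.07. Uncalled genes near 0 changed sign in RC siNcl against RC siControl. Orc6 was at -0.0037 with RLE, -0.0034 with DESeq2 and -0.035 to 0.052 with 1 library left out. Pole was at -0.030 with ERCC scaling and -0.18 to 0.15 with 1 left out, and Rrm1 at 0.031 and -0.072 to 0.044. Rfc1 ranged from -0.075 to 0.066. Trp53 was at 0.018 with the 5 CPM filter, 0.0093 with the compared groups alone and -0.060 to 0.051 with 1 left out. The causes were not tested.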

Other observations

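Rb1, the pocket protein gene with the strongest rise in RC siNcl, was also higher in LINE1 siControl against RC siControl (1.25 ± 0.12, adjusted p = 1.16e-05 by edgeR) and in RC siDux against RC siControl (0.97 ± 0.12, adjusted p = 0.0002), 2 comparisons that share the RC siControl libraries. It was higher in RC siNcl against RC siDux (1.45 ± 0.12, adjusted p = 7.33e-07) and against LINE1 siControl (1.18 ± 0.11, adjusted p = 5.17e-06). Rbl2 was at 13.2, 12.1 and 9.26 CPM in LINE1 siControl, 15.9, 16.7 and 15.1 CPM in LINE1 siDux and 13.7, 13.8 and 12.5 CPM in RC siDux, all above its RC siControl libraries.

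Genes of G2 and mitosis were also counted in the comparisons that leave out RC siControl. In RC siNcl against RC siDux, 9 of the 30 rose (30%, against 9.53% of all genes) and 0 fell (against 7.1%). Against LINE1 siControl 5 rose (16.7%, against 10.4% of all genes) and 0 fell (against 9.45%). The median was 0.10 in both. Hmmr was at 432, 428 and 454 CPM in RC siNcl, 239, 228 and 265 CPM in LINE1 siControl and 347, 371 and 313 CPM in RC siDux, without overlap.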
